A study of Mus musculus with 9 samples.

Results

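The 10 genes described here encode subunits of the ISWI and SWI/SNF chromatin remodellers. They were taken by name as Smarca1 set beside its paralogue Smarca5, the ISWI partners Bptf and Baz1a, and the SWI/SNF subunits Smarca2, Smarca4, Smarcb1, Smarcc1, Smarcd3 and Arid1a. They are 10 of the 22068 genes in the count table, and all 10 passed the filter on low expression that left 10100 genes for testing. The libraries were RNA-seq of primary mouse embryonic fibroblasts (MEFs), strain C57Bl/6 at passage 2, and the question was how ectopic CRX from a eutherian and from a metatherian mammal alters the transcriptome. CRX is a homeodomain transcription factor known for its role in photoreceptors. The cultures fell into groups of 3 libraries each, namely eutherian CRX (V5-tagged human gene), metatherian CRX (V5-tagged opossum gene) and control cells that received the plasmid with puromycin resistance but no homeobox gene. All cultures, controls included, were electroporated and kept in puromycin for 5 days. The labels place a recovery of 48 h after this selection, whereas the study's methods place it before selection and an overnight culture after it. Both transgenes were overexpressed from plasmids in a cell type that is not known to use CRX, and no source used here says whether the 3 libraries of a group came from separate cultures, so p-values measure only the spread between these libraries.

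Chromatin remodellers use the energy of ATP to slide, evict or exchange nucleosomes. ISWI complexes are built on Smarca1 (SNF2L) or Smarca5 (SNF2H), related ATPases that space nucleosomes in regular arrays. Their partner subunits set the complex, with Bptf defining NURF and Baz1a (ACF1) defining ACF and CHRAC. SWI/SNF (BAF) complexes are built on either Smarca2 (BRM) or Smarca4 (BRG1), with core subunits such as Smarcb1 and Smarcc1, the variable subunit Smarcd3 (BAF60C), and Arid1a in one of the complex types. They open chromatin at promoters and enhancers, and the choice of ATPase and of variable subunits differs between cell types.

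Because the comparison of paralogues rests on reads that can be told apart, the most alike 75 bases of each ATPase pair are shown, 75 bases being the length of 1 read of a pair. They are coding sequence of the GENCODE M21 annotation of GRCm38 (mm10), written 5′ to 3′ on the coding strand, and the capitals mark the bases that differ between the paralogues.
Smarca1: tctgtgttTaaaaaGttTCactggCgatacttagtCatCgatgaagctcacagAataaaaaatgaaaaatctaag
Smarca5: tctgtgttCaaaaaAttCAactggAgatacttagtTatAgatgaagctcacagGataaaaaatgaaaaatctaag
Smarca2: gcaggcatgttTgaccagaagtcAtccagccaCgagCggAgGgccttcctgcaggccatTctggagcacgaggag
Smarca4: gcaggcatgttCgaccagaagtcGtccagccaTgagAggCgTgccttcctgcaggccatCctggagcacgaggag
The Smarca1 window covers coding bases 904 to 978 and the Smarca5 window bases 880 to 954, with 8 mismatches. The Smarca2 window covers coding bases 3634 to 3708 and the Smarca4 window bases 3691 to 3765, with 7 mismatches. Over whole coding sequences, Smarca1 and Smarca5 were identical at 73.6% of 3140 aligned bases with no identical run over 21 bases, and Smarca2 and Smarca4 at 74.1% of 4710 with no run over 20. No stretch of 75 coding bases of Smarca1, Smarca2, Smarca4, Bptf or Smarcb1 was found in the transcripts of another gene. For Smarca5, 55.6% of such stretches were also present in Smarca5-ps or in predicted genes, so its counts are the least certain of the set, since how reads with several matches were counted is not given in the sources used here. The share was 12.8% for Smarcd3 (with Chpf2), 6.27% for Baz1a, 2.93% for Smarcc1 and 0.0442% for Arid1a.

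In the mm10 coordinates of the count table, Smarca1 lies on the minus strand of chrX:47809370-47892931 and Smarca5 on the minus strand of chr8:80699943-80739459. Smarca2 lies on the plus strand of chr19:26605089-26778321 and Smarca4 on the plus strand of chr9:21616106-21704230. Bptf (chr11:107033081-107131922), Baz1a (chr12:54892600-55014371), Smarcb1 (chr10:75896769-75921614), Smarcd3 (chr5:24592622-24624456) and Arid1a (chr4:133679008-133753981) are on the minus strand, and Smarcc1 (chr9:110132024-110240178) is on the plus strand. The counts are over annotated exons, and no exon of the 10 genes overlapped an exon of another gene in the table. The letters TAATCC, the core that CRX and related homeodomains prefer, were searched on both strands in the 250 bases upstream of RefSeq start sites (GRCm38.p6). They were in 0 of 10 promoters, which belong to 9 of the 10 genes, against 6.25% of all 32851 promoters. For Smarca1 (chrX:47892614-47892863) and Smarcd3 (chr5:24602003-24602252) the window lay wholly inside the span given above. The search says only that these letters are not in those windows.

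The libraries held 54145701 to 94699657 counts. Crx, which here reports the human transgene as far as its reads match mouse exons, had 627, 995 and 313 counts in the eutherian CRX libraries, 0 in each control library and 4, 0 and 0 in the metatherian CRX libraries, so the opossum transgene could not be checked in this way. Replicate 3 stood apart from the other libraries of its group in all 3 groups, and by most in eutherian CRX. On the first principal component of all tested genes, which held 56.0% of the variance, the eutherian CRX libraries lay at -27.4, -30.9 and 55.0, the controls at -32.3, -21.4 and 6.84, and the metatherian CRX libraries at 0.700, 12.7 and 36.8, in the order of replicates 1 to 3. The summed level of 10 fibroblast markers, all detected, was 42421 to 48845 CPM (counts per library size, scaled as in edgeR) in the controls, and 18601 in eutherian CRX replicate 3 and 22849 in metatherian CRX replicate 3, against 37805 to 44309 in the other 4 CRX libraries. Fn1, which encodes fibronectin, made up much of this sum and was at 26110 and 28448 CPM in metatherian CRX replicates 1 and 2 against 15603 to 18131 in the controls. Gene by gene, 8 of the 10 fibroblast markers had log2 fold changes below 0 with metatherian CRX (median -1.21) and 9 of 10 with eutherian CRX (median -0.40). The first median was -0.79 without control replicate 3, and the second was -0.24 without eutherian CRX replicate 3 and -0.85 without its replicate 2. None of the 10 passed the test described below with all 9 libraries. With metatherian CRX, 6 did without eutherian CRX replicate 3 (8.83% of all genes) and 3 without metatherian CRX replicate 3 (4.92%). A fit to only the 6 libraries compared called 3 (3.97%). Without replicate 3 of every group 9 passed (22.2%), where 7 of the 9 were lower and Fn1 and Pdgfra higher. The last of these fits called 2 with eutherian CRX (2.94%), Col1a1 and Thy1, both lower. Values without eutherian CRX replicate 3 are given for the 10 subunits further on.

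With all 9 libraries, none of the 10 subunits passed the test in any comparison. With metatherian CRX against control, Smarca1 had the largest difference of the set, being lower, and Smarca2 and Smarcd3 followed. With eutherian CRX the largest was that of the ISWI partner Baz1a, also lower (-0.41 on the log2 scale, and -0.24 with metatherian CRX). The paralogues Smarca5 and Smarca4, the partner Bptf and the core subunit Smarcc1 differed from the controls by at most 0.18 on the log2 scale in both CRX groups. The test was edgeR's quasi-likelihood test on the counts with Benjamini-Hochberg adjustment over all 10100 genes and a call at an adjusted p under 0.05. It called 0 of 10 subunits with metatherian CRX (background 0.0297% of all genes), 0 of 10 with eutherian CRX (0.604%) and 0 of 10 between both CRX groups (0%). An unadjusted p under 0.05 was reached by 1 of 10 with metatherian CRX (Smarcd3, lower), where 19.5% of all genes reached it in either direction and 10.5% as lower. It was reached by 1 of 10 with eutherian CRX (Baz1a, lower; 8.56% of all genes in either direction, 6.34% as lower) and by 0 of 10 between both CRX groups (11.5%, with 4.13% as lower). By ranges alone, 4 of 10 had all 3 metatherian CRX libraries below all 3 controls (Smarca1, Smarca2, Smarcb1 and Smarcd3) and none had them above, where 12.3% of all genes were below and 23.3% did not overlap in either direction. All eutherian CRX libraries were below the controls for 1 of 10 (Baz1a; 7.8% of all genes, 14% in either direction), and the CRX groups separated for 1 of 10 with metatherian CRX lower (Smarcb1; 5.3%, 11.5% in either direction). DESeq2 also called 0 of 10 in each comparison, where it called 9.94%, 3.3% and 3.14% of all genes.

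**Figure D1:**
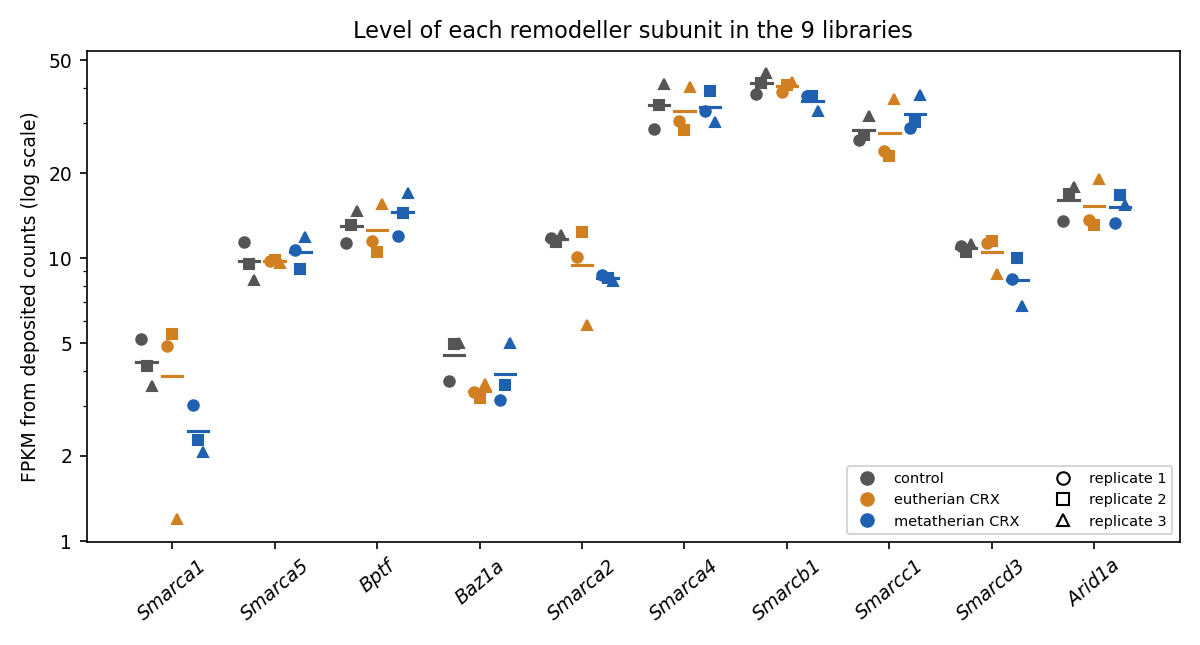
Level of each subunit in each of the 9 libraries, as CPM per kilobase of exon (labelled FPKM, log axis), coloured by group with the replicate number as the marker shape and the group mean as a line. Smarca1 sits lowest in eutherian CRX replicate 3, and Smarca2 in the 3 metatherian CRX libraries lies below all 3 controls.

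Per kilobase of exon, the control level was highest for Smarcb1, at 41.6 ± 3.47 CPM per kb (SD, n = 3), then Smarca4 at 34.8 ± 6.32 and Smarcc1 at 28.4 ± 3.03. This order held within each of the 3 controls, although the ranges of neighbours overlapped across libraries, and the range of Smarcc1 lay wholly above that of Arid1a (16.1 ± 2.27). Bptf, Smarca2, Smarcd3 and Smarca5 lay between 9.76 and 13.0, and Baz1a (4.56 ± 0.767) and Smarca1 (4.29 ± 0.824) were lowest and overlapped. In the metatherian CRX libraries Smarca1 was lowest at 2.45 ± 0.508, below Baz1a (3.90 ± 0.971) in every library and with no overlap of ranges. The minor ATPase of each family in these cells was therefore Smarca1 by the side of Smarca5 and Smarca2 by the side of Smarca4.

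Smarca1, an ISWI ATPase known for its expression in neural tissue, was the subunit with the widest spread. It was at 21.6, 17.3 and 14.7 CPM in control replicates 1 to 3, at 20.4, 22.6 and 4.97 CPM with eutherian CRX, and at 12.6, 9.45 and 8.60 CPM with metatherian CRX. All 3 metatherian CRX libraries were below every control, and the eutherian CRX group held both the highest and the lowest of the 9 values, which differ 4.54-fold. The mean with metatherian CRX was 0.572 times the control mean, a log2 fold change of -0.80 ± 0.38 (SE) with an edgeR adjusted p = 0.301. Between libraries of the same replicate number it was -0.77, -0.87 and -0.78. With eutherian CRX the log2 fold change was -0.32 ± 0.38 (adjusted p = 0.891), and metatherian against eutherian CRX it was -0.48 ± 0.39 (adjusted p = 0.69). The study itself named Smarca1 from these libraries, so its direction here is not independent evidence. The study also repeated the transfections and measured Smarca1 by qPCR. It reported a fall with metatherian CRX and with the mouse CRX-derived gene Oboxa1, but not with eutherian CRX. Those samples are not among the libraries used here.

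Smarca5, the more widely expressed ISWI paralogue, did not share that pattern. It was at 52.8, 44.3 and 38.7 CPM in the controls, 45.2, 45.7 and 44.6 CPM with eutherian CRX, and 49.4, 42.5 and 55.0 CPM with metatherian CRX. The 3 groups overlapped, and the eutherian CRX values lay closest together. Its log2 fold change was 0.12 ± 0.14 with metatherian CRX (edgeR adjusted p = 0.687) and 0.0033 ± 0.14 with eutherian CRX (adjusted p = 0.999).

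The share of Smarca1 in the summed counts per kb of Smarca1 and Smarca5 compares both ATPases within a library, free of library scaling. It was 31.2%, 30.4% and 29.8% in the controls, 33.5%, 35.5% and 11.0% with eutherian CRX, and 22.1%, 19.9% and 14.8% with metatherian CRX. The controls lay close together, every metatherian CRX library was below them, and eutherian CRX replicates 1 and 2 were above them with replicate 3 far below. The mean log2 ratio of Smarca1 to Smarca5 differed by -0.93 between metatherian CRX and control, with a two-sided exact permutation p = 0.1, the smallest that 3 against 3 libraries allow. With eutherian CRX the difference was -0.43 (exact permutation p = 1), and it was 0.26 without replicate 3. Metatherian against eutherian CRX it was -0.49 (exact permutation p = 0.6), but -1.19 without eutherian CRX replicate 3, and -0.18 and -0.12 without its replicates 1 and 2.

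**Figure D2:**
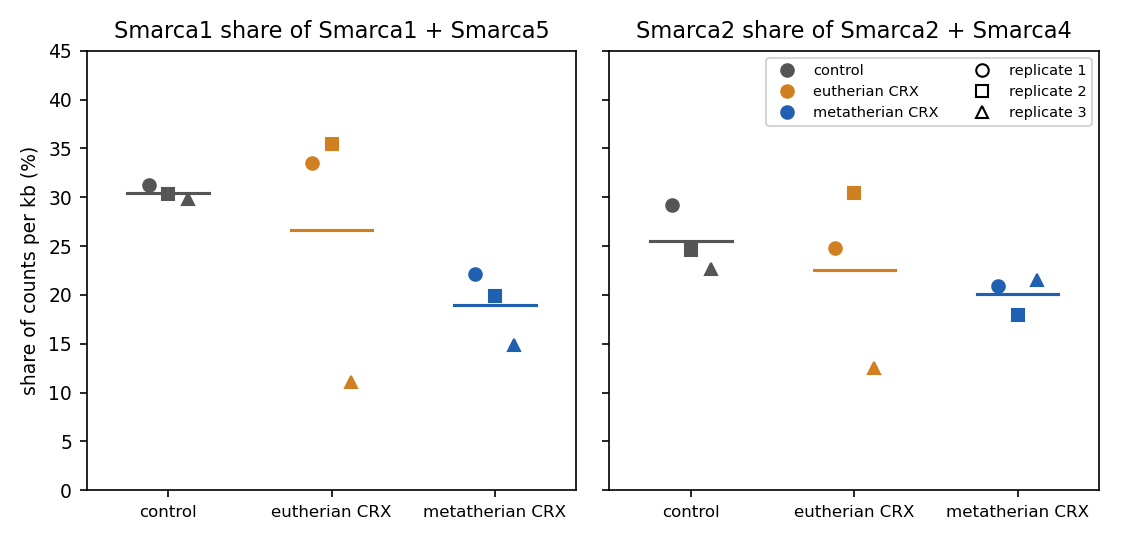
Share of Smarca1 in Smarca1 plus Smarca5 (left) and of Smarca2 in Smarca2 plus Smarca4 (right), in percent of counts per kilobase of exon, with 1 point per library and a line at the group mean. The metatherian CRX shares of Smarca1 run from 14.8% to 22.1% and the control shares from 29.8% to 31.2%.

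Bptf, the large subunit of NURF that reads methylated histone H3, was at 146 to 191 CPM in the controls, 136 to 201 with eutherian CRX and 156 to 221 with metatherian CRX, with overlap throughout. Its log2 fold change was 0.15 ± 0.11 with metatherian CRX (edgeR adjusted p = 0.51) and -0.06 ± 0.11 with eutherian CRX (adjusted p = 0.94). Between libraries of the same number, the log2 differences from control were 0.090, 0.15 and 0.21 with metatherian CRX and 0.030, -0.31 and 0.079 with eutherian CRX. Baz1a, the ACF subunit that pairs with Smarca5, was at 24.4, 33.0 and 33.4 CPM in the controls, 22.4, 21.3 and 23.7 with eutherian CRX, and 20.9, 23.5 and 33.1 with metatherian CRX. All eutherian CRX libraries were below all controls, and metatherian CRX replicate 3 was at the control level. Baz1a had a log2 fold change of -0.41 ± 0.15 with eutherian CRX (edgeR adjusted p = 0.501) and -0.24 ± 0.15 with metatherian CRX (adjusted p = 0.422).

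Smarca2, the BRM ATPase, was at 86.4, 83.4 and 88.2 CPM in the controls, 74.1, 90.8 and 42.5 CPM with eutherian CRX, and 64.0, 62.6 and 61.0 CPM with metatherian CRX. The metatherian CRX libraries lay tightly together and below every control, while the eutherian CRX libraries spread across both groups, replicate 3 again lowest. The mean with metatherian CRX was 0.727 times the control mean, a log2 fold change of -0.46 ± 0.22 (edgeR adjusted p = 0.303), and -0.43, -0.42 and -0.53 between libraries of the same number. With eutherian CRX it was -0.36 ± 0.22 (adjusted p = 0.751), and between both CRX groups -0.10 ± 0.22 (adjusted p = 0.893). Both values rested on eutherian CRX replicate 3, and without it they were -0.06 ± 0.12 and -0.39 ± 0.12 (edgeR adjusted p = 0.924 and 0.154). With eutherian CRX against control, Smarca2 was -0.61 without eutherian CRX replicate 2 and -0.19 without control replicate 3. Smarca2 stands in the study's own list of genes lower with metatherian CRX, so this direction too is not independent evidence.

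Smarca4, the BRG1 ATPase, was at 202, 247 and 292 CPM in the controls, 218, 201 and 286 with eutherian CRX, and 235, 277 and 215 with metatherian CRX. The groups overlapped, and the log2 fold change was -0.0071 ± 0.18 with metatherian CRX (edgeR adjusted p = 0.988), a sign that turned under other scalings. The share of Smarca2 in Smarca2 plus Smarca4, in counts per kb, was 29.2%, 24.6% and 22.6% in the controls, 24.8%, 30.4% and 12.6% with eutherian CRX, and 20.9%, 17.9% and 21.5% with metatherian CRX. Every metatherian CRX share was below every control share, though the highest of the former and the lowest of the latter were close. The mean log2 ratio of Smarca2 to Smarca4 differed by -0.44 with metatherian CRX (two-sided exact permutation p = 0.1, the smallest possible) and by -0.31 with eutherian CRX (exact permutation p = 0.9), the latter being 0.16 without eutherian CRX replicate 3.

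Smarcd3, the BAF60C subunit known from heart and muscle, was at 29.4, 27.9 and 29.8 CPM in the controls, 30.1, 30.7 and 23.5 with eutherian CRX, and 22.6, 26.6 and 18.0 with metatherian CRX. Its metatherian CRX values were all below the controls, and eutherian CRX replicate 3 was below them as well. This gave a log2 fold change of -0.40 ± 0.14 with metatherian CRX (edgeR adjusted p = 0.205), the lowest p of the 10 in that comparison, and -0.07 ± 0.14 with eutherian CRX (adjusted p = 0.954). Smarcb1, a core subunit needed for stable SWI/SNF assembly, was at 63.3, 68.8 and 74.8 CPM in the controls, 64.3, 67.7 and 69.4 with eutherian CRX, and 62.2, 62.1 and 54.8 with metatherian CRX. The metatherian CRX values were below every library of both other groups, the nearest control by a narrow margin. Its log2 fold change was -0.21 ± 0.11 with metatherian CRX (edgeR adjusted p = 0.339) and -0.17 ± 0.11 metatherian against eutherian CRX (adjusted p = 0.595).

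Smarcc1 (BAF155), the scaffold of the SWI/SNF core, was at 148, 154 and 180 CPM in the controls, 135, 130 and 206 with eutherian CRX, and 164, 172 and 214 with metatherian CRX. Replicate 3 was the highest library in each of the 3 groups, and the log2 differences of metatherian CRX from the control of the same number were 0.14, 0.15 and 0.25. The log2 fold change was 0.18 ± 0.11 with metatherian CRX (edgeR adjusted p = 0.415), -0.06 ± 0.11 with eutherian CRX (adjusted p = 0.945) and 0.24 ± 0.11 between both CRX groups (adjusted p = 0.47). Arid1a, the DNA-binding subunit of canonical BAF, ranged from 113 to 149 CPM in the controls, 109 to 158 with eutherian CRX and 111 to 140 with metatherian CRX. These ranges overlapped, with log2 fold changes of -0.08 ± 0.13 in both comparisons with control (edgeR adjusted p = 0.786 and 0.93).

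**Figure D3:**
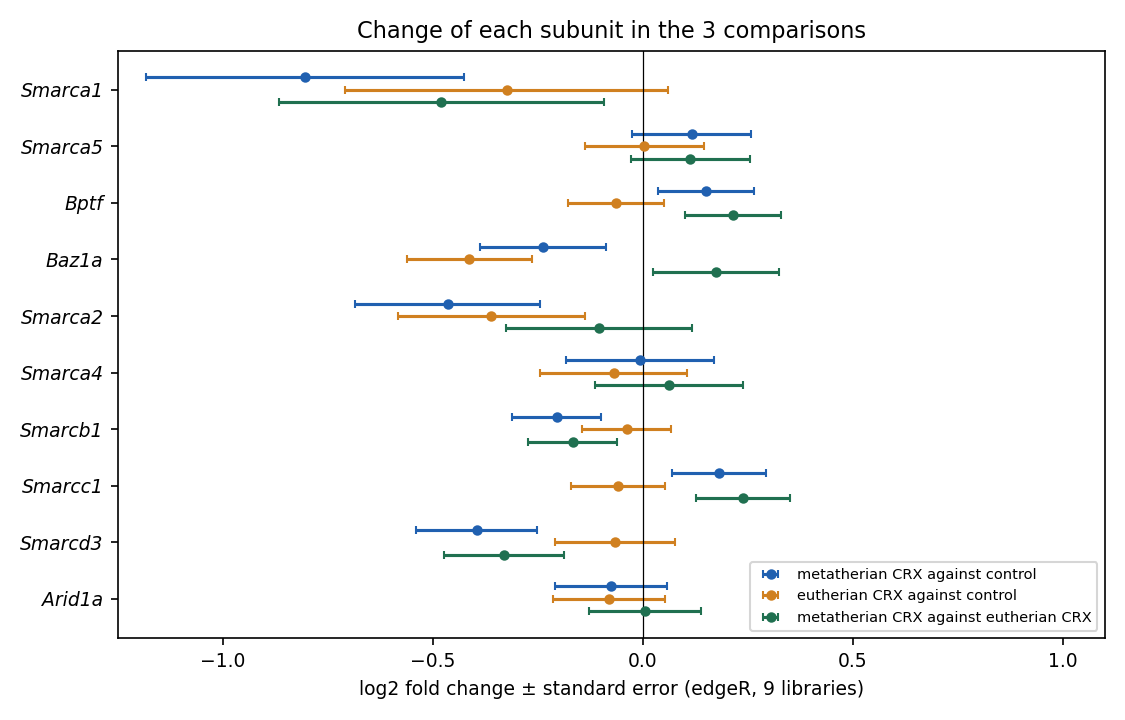
The log2 fold change of each subunit in the 3 comparisons, with bars of 1 standard error from the edgeR fit to all 9 libraries. Smarca1 with metatherian CRX is farthest from 0, at -0.80 with a standard error of 0.38, and no subunit passed an adjusted p of 0.05.

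The call on Smarca1 turned on eutherian CRX replicate 3, also where the comparison did not include that group, because all libraries share 1 estimate of the spread. Without that library, Smarca1 passed the edgeR test with metatherian CRX (log2 fold change -0.80 ± 0.15, adjusted p = 0.027), as 1 of 10 subunits against 8.83% of all genes. It also passed between both CRX groups (-0.97 ± 0.17, edgeR adjusted p = 0.0409), as 1 of 10 against 3.47%. Smarca2 then stood at -0.45 ± 0.11 with metatherian CRX (edgeR adjusted p = 0.0527), just over the threshold. With eutherian CRX the Smarca1 log2 fold change became 0.17 ± 0.17 (edgeR adjusted p = 0.862). The other subunits were not called without that library. With metatherian CRX their log2 fold changes moved by less than their standard errors. With eutherian CRX, Baz1a was -0.32 ± 0.17, Smarca4 -0.20 ± 0.18, Arid1a -0.20 ± 0.13, Smarcc1 -0.17 ± 0.10, Bptf -0.12 ± 0.13, Smarcb1 -0.06 ± 0.12, Smarca5 0.011 ± 0.18 and Smarcd3 0.0027 ± 0.16. Between both CRX groups, Smarcd3 was -0.39 ± 0.16, Smarcb1 -0.14 ± 0.12, Baz1a 0.08 ± 0.17, Smarca5 0.11 ± 0.18, Arid1a 0.13 ± 0.13, Smarca4 0.19 ± 0.18, Bptf 0.28 ± 0.13 and Smarcc1 0.36 ± 0.10. The Smarca1 difference between both CRX groups, -0.48 with all libraries, was -0.04 without eutherian CRX replicate 2 and -0.02 without replicate 2 of every group (edgeR adjusted p = 0.98 and 0.994), and leaving out replicate 2 or 3 of metatherian CRX it was -0.23 or -0.73.

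A fit to the 6 control and metatherian CRX libraries alone gave Smarca1 an edgeR adjusted p = 0.0459 with 3.97% of genes called. Leaving out replicate 3 of every group gave calls for Smarca1 and Smarca2 with metatherian CRX (2 of 10, against 22.2% of all genes), for 0 of 10 with eutherian CRX (2.94%), and for Smarca1, Smarca2 and Smarcc1 between both CRX groups (3 of 10, against 22.5%). Smarca1 and Smarca2 were lower and Smarcc1 higher with metatherian CRX. Leaving out any single one of the other 8 libraries called 0 of 10 in each comparison, also without metatherian CRX replicate 3, where 4.92% of genes were called with metatherian CRX, 1.16% with eutherian CRX and 1.48% between both. Over the 20 alternatives the adjusted p of Smarca1 with metatherian CRX ran from 0.0102 to 0.778, with log2 fold changes from -1.12 to -0.51.

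**Figure D4:**
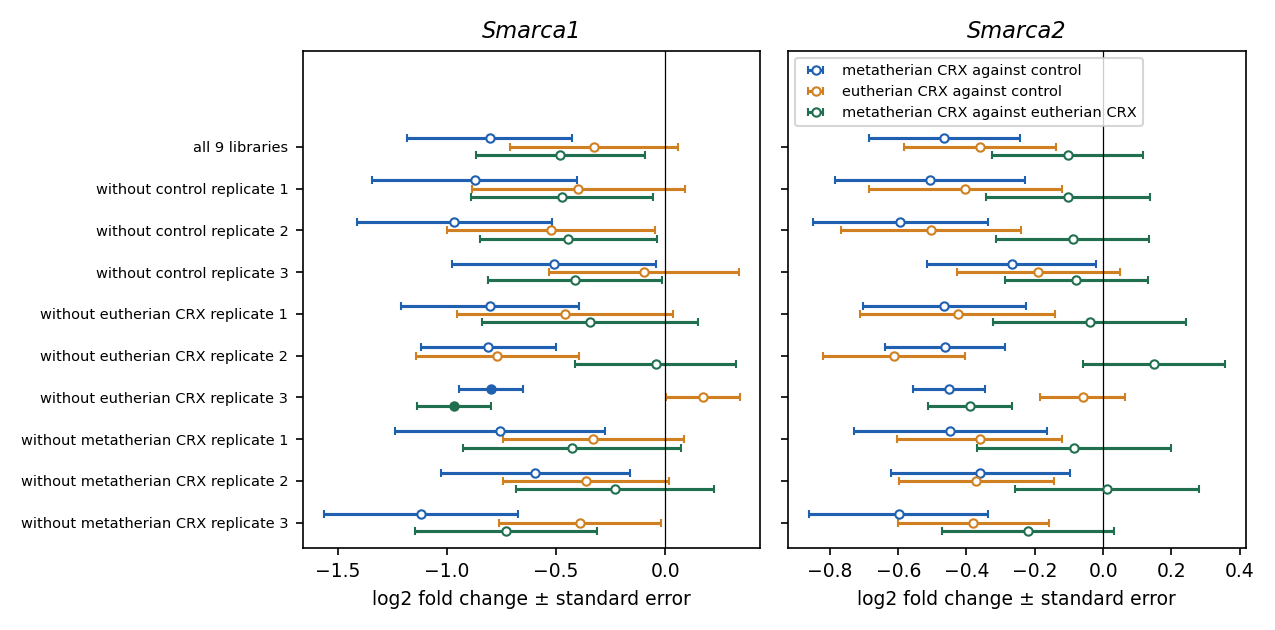
The log2 fold change with its standard error for Smarca1 (left) and Smarca2 (right) with all 9 libraries and with each library left out in turn, where filled points have an adjusted p under 0.05 and open points do not. Filled points appear only for Smarca1 without eutherian CRX replicate 3, and the eutherian CRX difference of Smarca1 then moves from -0.32 to 0.17.

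Across the 9 libraries, subunits varied together in a few combinations, given as a description of libraries that share groups. Smarca1 and Smarca2 had a Pearson r of 0.93, Bptf and Smarcc1 one of 0.95, and Smarca4 and Arid1a one of 0.88 on the log2 CPM scale, whereas Smarca1 and Smarca5 had one of 0.0084. Without eutherian CRX replicate 3 these were 0.84, 0.95, 0.85 and -0.12. Smarca1 followed the first principal component with r = -0.97, Smarca2 with -0.85, Bptf with 0.88 and Smarcc1 with 0.94. With eutherian CRX replicate 3 left out of the correlation, but not of the component, they were -0.96, -0.72, 0.92 and 0.95. The same component separates eutherian CRX replicate 3 from its group. Of all tested genes, those most like Smarca1 were Slc24a3 (r = 0.996), Sept11 (0.994), Prkd1 (0.992), 3632451O06Rik (0.991) and Pdia4 (0.991), and those most opposite were Dusp10 (-0.992), Ppp4r1 (-0.99), Nol9 (-0.984), Fam19a5 (-0.982) and Pi4k2a (-0.981), each over 9 libraries. For these 10 genes the values without eutherian CRX replicate 3 lay between 0.982 and 0.994 and between -0.994 and -0.963. The genes were chosen by r over libraries that include these, so this is no independent check.

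The other remodeller genes were read from 4 lists, with 65 of 75 genes tested. None was called by edgeR in any comparison (0 of 65). An unadjusted p under 0.05 was reached by 7 with metatherian CRX (10.8%, against 19.5% of all genes), 3 with eutherian CRX (4.62%, against 8.56%) and 2 between both (3.08%, against 11.5%). DESeq2 called 2, 2 and 0 of them, where it called 9.94%, 3.3% and 3.14% of all genes. Without eutherian CRX replicate 3 edgeR again called 0 in each comparison, where it called 8.83% of all genes with metatherian CRX, 0% with eutherian CRX and 3.47% between both. Without metatherian CRX replicate 3 it called 2 with metatherian CRX (4.92% of all genes) and 1 with eutherian CRX (1.16%). Without replicate 3 of every group it called 8 (22.2%), 3 (2.94%) and, between both, 6 (22.5%). In the 8 other ISWI subunits tested the median log2 fold change was -0.05 with metatherian CRX and -0.07 with eutherian CRX, against -0.0080 and 0.0013 over all genes and -0.14 and -0.07 over the 10 subunits above. Their range with metatherian CRX ran from -0.21 for Chrac1, a histone-fold subunit of CHRAC, to 0.29 for Rsf1, the partner of Smarca5 in RSF. Chrac1 was -0.13 without metatherian CRX replicate 3, and Rsf1 was 0.17 without control replicate 3. With eutherian CRX it ran from -0.17 for Rbbp7 to 0.12 for Rbbp4 (-0.04 without control replicate 3), related histone chaperones.

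Among 19 other SWI/SNF subunits the medians were -0.10 with metatherian CRX and -0.04 with eutherian CRX. The extremes with metatherian CRX were Gltscr1, which defines the non-canonical BAF complex (-0.63 ± 0.26, edgeR adjusted p = 0.253), and Pbrm1 of PBAF (0.17 ± 0.12). Without metatherian CRX replicate 3 they were -0.34 and 0.062, and without control replicate 3 Pbrm1 was 0.046. With eutherian CRX they were Bcl7a (-0.27 ± 0.15) and Ss18l1 (0.22 ± 0.13, or 0.13 without control replicate 3), both BAF subunits. The 16 CHD and NuRD subunits had medians of -0.02 and 0.01. The ATPase Chd3 was lowest in both comparisons, at 113 ± 12.3 CPM with metatherian CRX and 96.1 ± 6.17 with eutherian CRX against 181 ± 77.6 in the controls (SD, n = 3), with edgeR adjusted p = 0.153 and 0.173. Control replicate 3, at 270 CPM against 128 and 144 in the other controls, carried much of this, and without it the log2 fold changes went from -0.62 to -0.35 and from -0.85 to -0.57. Chd3 was not called without that library (edgeR adjusted p = 0.209 and 0.184). Without replicate 3 of every group it was called in both comparisons, where 22.2% and 2.94% of all genes were called. Highest were Chd4 with metatherian CRX (0.22 ± 0.11) and Mbd3 with eutherian CRX (0.15 ± 0.24, or -0.12 once eutherian CRX replicate 3 was left out).

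The 22 INO80, SRCAP and other SNF2 proteins had medians of 0.01 and 0.03. Ercc6l (PICH), a helicase that acts on DNA bridges in mitosis, was lowest with both genes, at 5.58 ± 1.80 CPM with metatherian CRX and 4.44 ± 0.547 with eutherian CRX against 9.73 ± 0.998 in the controls. Its log2 fold changes were -0.83 ± 0.24 and -1.14 ± 0.24, with edgeR adjusted p = 0.145 and 0.144. Both were called without metatherian CRX replicate 3 (-1.15 and -1.14, edgeR adjusted p = 0.0245 and 0.0253) and without replicate 3 of every group (-1.16 and -1.17, edgeR adjusted p = 0.00227 and 0.0119). Btaf1, which removes TBP from DNA, was highest with metatherian CRX (0.37 ± 0.15, and 0.18 without control replicate 3) and the helicase Ruvbl2 with eutherian CRX (0.26 ± 0.26, or -0.13 with eutherian CRX replicate 3 removed).

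**Figure D5:**
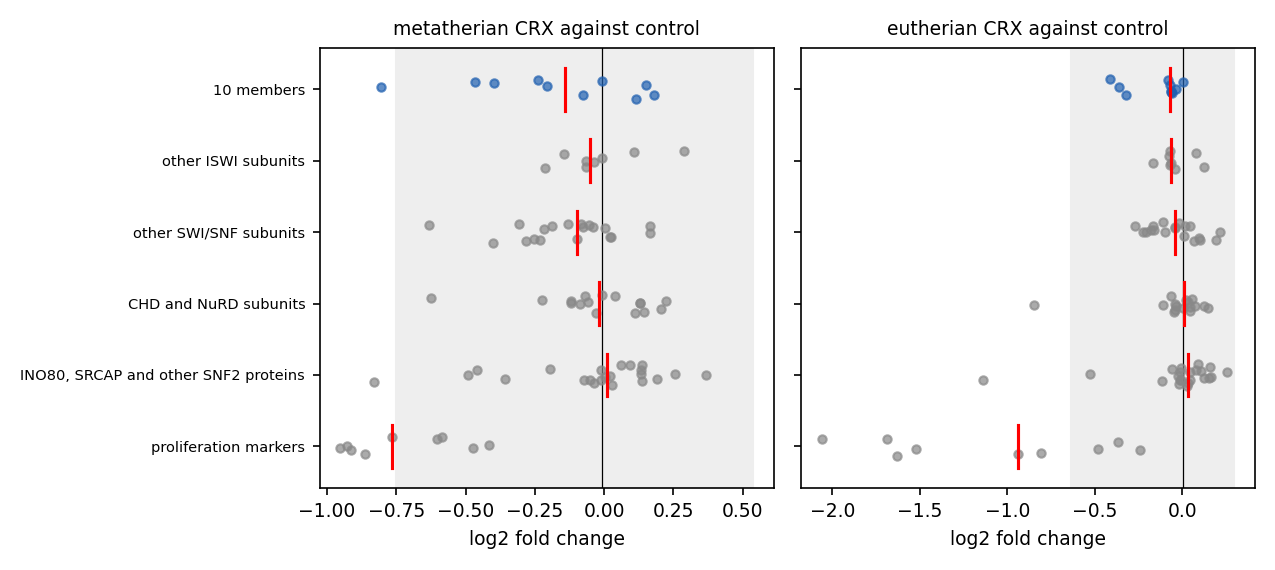
The log2 fold change of each tested gene in the 10 subunits, 4 lists of other remodeller genes and the proliferation markers, with metatherian CRX (left) and eutherian CRX (right) against control. Red lines are list medians, the black line is the median of all tested genes and the grey band is their 5th to 95th percentile; the proliferation markers lie at a median of -0.77 and -0.94.

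Proliferation markers moved beside these results. Of 9 tested, 4 fell with eutherian CRX by edgeR (Mki67, Top2a, Ccna2 and Birc5, with log2 fold changes from -2.06 to -1.52, where 0.604% of all genes were called) and 0 were called with metatherian CRX (0.0297%), where all 9 had values below 0. The 4 calls with eutherian CRX were lost without the replicate block, in the 6 libraries alone, and on leaving out any control, any eutherian CRX library or metatherian CRX replicate 1 (0 of 9 each). In each of those fits 0% of all genes were called with eutherian CRX, although the log2 fold change of Mki67 was -2.16 without eutherian CRX replicate 3 and -2.19 without control replicate 3. Without eutherian CRX replicate 3, 7 of 9 were called with metatherian CRX (8.83% of all genes). Without replicate 3 of every group, 8 of 9 fell with eutherian CRX (2.94%) and 9 of 9 with metatherian CRX (22.2%). Mki67, which marks cycling cells, was -2.06 with eutherian CRX (edgeR adjusted p = 0.0272) and -0.93 with metatherian CRX (0.0722), and Top2a, the topoisomerase of dividing cells, was -1.63 (0.0272) and -0.77 (0.0825). The summed level of the 10 listed was 305 to 374 CPM in the controls, 158 to 210 with eutherian CRX and 176 to 261 with metatherian CRX, and none was at 0 in every library. Macrophage markers (8 listed) summed to 12.7 to 45.5 CPM in the controls, 5.44 to 25.04 with eutherian CRX and 5.17 to 11.4 with metatherian CRX. Neural markers (5 listed, nearly all of it Stmn2) summed to 56.8 to 78.9, 75.3 to 85.0 and 75.5 to 188 CPM. Endothelial markers summed to 11.4 to 18.7 CPM over the 9 libraries. Epithelial markers summed to 0.698, 1.02 and 3.64 CPM in control replicates 1 to 3, 0.466, 0.612 and 12.7 with eutherian CRX and 1.87, 2.53 and 9.13 with metatherian CRX. The highest sum was in eutherian CRX replicate 3, where Smarca1 was lowest. Krt18 was the largest part with metatherian CRX and in replicate 3 of the other groups, and Cdh1 in the remaining libraries. Krt18, the epithelial marker tested, had a log2 fold change of 1.98 with metatherian CRX (edgeR adjusted p = 0.223). Skeletal muscle markers summed to 8.73 to 12.6 CPM in the controls, 5.71, 5.49 and 20.4 with eutherian CRX and 8.21 to 11.9 with metatherian CRX. Des made up most of this sum, and Myod1, Myog and Actn2 were under 1 CPM in every library. In bulk RNA, fewer cells of a type and less RNA per cell cannot be told apart, and the part of proliferation, of these markers or of the fibroblast markers in the levels of Smarca1 and Smarca2 was not tested.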

How the data were processed

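RNA from MEFs was enriched for poly-A, prepared with the TruSeq kit and sequenced on 1 NextSeq500 chip as 75 bp paired reads. Per the study's methods and the labels, the authors aligned reads with STAR to mm10 and counted them per gene with featureCounts; they deposited raw counts for 9 libraries. The annotation release, strand setting and treatment of reads with several matches are not given in the sources used here. Counts were fitted in edgeR 4.0.16 (R 4.3.3) with TMM scaling and replicate number as a block (the study associated samples made together), over genes that passed filterByExpr and whose mean FPKM exceeded 2 in some group. CPM are on TMM-scaled library sizes. Standard errors were derived from each log2 fold change and its F statistic. DESeq2 1.42.0 and limma 3.58.1 (voom) were alternatives. The edgeR, DESeq2 and voom steps were run on simulated counts with 200 of 10100 genes changed by a log2 fold change of 2. They recovered 193, 194 and 193 of these genes, with 12, 49 and 11 false calls. The simulated counts held no replicate effect, so they do not speak for smaller changes or for the spread of replicate 3. The 10 genes and all lists were chosen with earlier results of these data known. Named beside them are the genes with the highest and lowest log2 fold change of each other remodeller list against control, called markers, Mki67 and Top2a, and the 5 most and least like Smarca1.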

Additional observations from a re-analysis of the deposited data

How the results depend on the processing

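The count of the 10 subunits called stayed at 0 in each comparison without the replicate block, under upper-quartile and relative-log-expression scaling, DESeq2, limma voom, filterByExpr alone and no filter on low counts; the fit to only the 6 libraries compared called 1 with metatherian CRX and 0 in the other comparisons. Leaving out libraries gave 0 to 2 subunits with metatherian CRX and 0 to 3 between both CRX groups, the calls being those given above without eutherian CRX replicate 3 and without all replicate 3 libraries. Why that library moves the spread was not tested. Smarca1 with metatherian CRX kept its sign in all 20 alternatives.

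Over all genes the count of calls with metatherian CRX, 3 in the main analysis, was 1004 by DESeq2 and 398 in the 6 libraries, and 0 to 2221 with libraries left out. With eutherian CRX, 61 in the main analysis, it was 333 by DESeq2, 109 with no filter, 0 in the 6 libraries and 0 to 295 with libraries left out. Between both CRX groups, 0 in the main analysis, it was 317 by DESeq2, 1 by limma voom and 0 to 2258 with libraries left out. Of the 4 wider lists, DESeq2 called 2 genes with metatherian and 2 with eutherian CRX, filterByExpr alone and no filter 1 each with eutherian CRX, and left-out libraries gave 0 to 8, 0 to 3 and 0 to 6. The cause of these moves was not tested.

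The sign of small differences turned. Smarca4 with metatherian CRX was 0.0011 with relative-log-expression size factors and with DESeq2, 0.014 with filterByExpr alone and 0.023 with no filter, and -0.15 to 0.20 with libraries left out. Arid1a between both CRX groups was -0.029 with upper-quartile scaling. With libraries left out, the log2 fold change with metatherian CRX ran from -0.078 to 0.23 for Smarca5 and -0.18 to 0.030 for Arid1a. With eutherian CRX it ran from -0.77 to 0.17 for Smarca1, -0.14 to 0.12 for Smarca5, -0.14 to 0.055 for Bptf, -0.20 to 0.076 for Smarca4, -0.096 to 0.041 for Smarcb1, -0.19 to 0.034 for Smarcc1, -0.19 to 0.094 for Smarcd3 and -0.20 to 0.066 for Arid1a. Between both CRX groups it ran from -0.040 to 0.23 for Smarca5, -0.39 to 0.15 for Smarca2, -0.13 to 0.29 for Smarca4 and -0.16 to 0.16 for Arid1a. Without a change of sign, the values with metatherian CRX ran from -0.60 to -0.27 for Smarca2, -0.55 to -0.23 for Smarcd3, -0.38 to -0.10 for Baz1a and -0.30 to -0.087 for Smarcb1. Without control replicate 3 it was -0.27 for Smarca2, -0.24 for Smarcd3, -0.13 for Smarcb1 and 0.10 for Smarcc1, without metatherian CRX replicate 3 -0.38 for Baz1a and -0.10 for Smarcb1, and without control replicate 2 -0.12 for Baz1a. Between both CRX groups, with libraries left out, Smarcb1 ran from -0.25 to -0.067 and Baz1a from 0.020 to 0.32. In that comparison Bptf ran from 0.097 to 0.29, Smarcc1 from 0.15 to 0.36 and Smarcd3 from -0.44 to -0.24. The log2 ratio of Smarca1 to Smarca5 with eutherian CRX ran from -0.81 to 0.26, and that of Smarca2 to Smarca4 from -0.65 to 0.16 with eutherian CRX and from -0.60 to 0.21 between both CRX groups.

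The study states that samples were made in pairs, but the labels do not say that a number marks a pair, and the libraries did not show it for every pair. Same-numbered libraries of different groups correlated over 0.1 in their deviations from the group means in 8 of 9 pairs, from 0.0034 to 0.75, as did 5 of 18 pairs with different numbers, and 7 of 9 libraries correlated best with their own number. Without the replicate block the count of genes called was 0 with metatherian CRX and 0 with eutherian CRX, Smarca5 with eutherian CRX was -0.0025 and Arid1a between both CRX groups was -0.0059.

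With 3 libraries a group, exact permutation tests cannot go below p = 0.1. Every subunit had 371 counts or more in every library.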
